A study of Mus musculus with 4 samples.

Results

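The genes of fatty acid oxidation were examined in regulatory T (Treg) cells that had been exposed to the cytokine thymic stromal lymphoprotein (TSLP). A list of 39 genes for the carnitine shuttle, mitochondrial and peroxisomal β-oxidation and the acyl-CoA synthetases was matched by gene name, and all 39 were among the 24418 genes listed. Treg cells of Foxp3yfpCre mice, which make a yellow fluorescent protein fused to Cre recombinase from the Foxp3 locus, were sorted from spleen and lymph nodes and kept for 3 h with PBS (2 samples, PBS 1 and PBS 2) or with 100 ng/mL TSLP (2 samples, TSLP 1 and TSLP 2). Every sample of either group carried the Foxp3yfpCre allele, the mice of the study were sex-matched and 8 to 12 weeks old, and the number of mice per sample was not given in the sources used here. RNA was sequenced, and 11328132 and 10724392 reads fell on genes in the PBS libraries, and 11761234 and 10271571 in those with TSLP. Values of a group are given in the order of replicates 1 and 2, and runs of 4 values in the order PBS 1, PBS 2, TSLP 1, TSLP 2. Nothing stated that the samples of a group came from separate mice or cultures, so the p-values below measure the spread between these samples, which may be technical.

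β-oxidation is the stepwise removal of acetyl units from fatty acids. A long-chain acid is joined to coenzyme A by an acyl-CoA synthetase, handed to carnitine by Cpt1 at the outer mitochondrial membrane, carried inward by Slc25a20 and returned to coenzyme A by Cpt2. Acyl-CoA dehydrogenases, enoyl-CoA hydratases, 3-hydroxyacyl-CoA dehydrogenases and thiolases then act in turn, while the flavoproteins Etfa, Etfb and Etfdh pass the electrons to the respiratory chain. Peroxisomes run a parallel route for very long and branched chains. Treg cells are known for using more lipid oxidation than many effector T cells, and TSLP is known to signal through JAK kinases and STAT5.

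The sorted cells carried the markers of their label. Ctla4, a checkpoint receptor of Treg cells, was the most abundant of 6 Treg and T cell markers, and none of the 6 was at 0 in any library. The library PBS 1 stood apart from the other 3. Foxp3, the defining transcription factor of Treg cells, was at 222 cpm (counts per 1000000 reads on genes) in PBS 1 against 472 in PBS 2, 407 in TSLP 1 and 470 in TSLP 2. Ikzf2, another Treg transcription factor, was at 568 cpm in PBS 1 and at 976, 996 and 953 cpm in the others. Markers of other cells were low. The 6 myeloid markers summed to 61.5 and 40.1 cpm under PBS and to 41.2 and 42.4 cpm under TSLP, with Cst3 the most abundant and Adgre1 at 0 in all libraries. The 2 CD8 T cell markers, led by Cd8b1, summed to 13.4, 7.83, 8.84 and 11.97 cpm in the same order, and the 4 B cell markers, led by Cd79b, to 0.618, 10.4, 5.02 and 9.35 cpm. Of 7 erythroid and platelet markers, 6 had no reads, and Alas2 reached at most 0.681 cpm. The part of these other cells, and of what set PBS 1 apart, in the results below was not tested.

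The question put to the list was whether 3 h of TSLP altered the transcripts of the oxidation machinery itself. No member passed the test. Of the 39 genes, 36 passed the filter on low values and were tested, and Cpt1b, Cpt1c and Acsl6 did not. By limma with Benjamini-Hochberg adjustment over the 11392 genes with a normalized count (reads divided by the size factor of the library) of at least 10 in at least 2 libraries, 0 of the 36 members tested and 0 genes of the whole table (0%) had an adjusted p under 0.05, and the smallest adjusted p of any gene was 0.9999. At an unadjusted p under 0.05, 2 members (5.56%) were found, Acad9 and Hadh, both with higher values under TSLP, against 192 genes in all (1.69%). If no gene differed, about 570 of the 11392 genes would be expected under this limit, more than were found. The share of the members rests on 2 genes and is not read as an excess. With edgeR on the recovered reads, 3 members and 234 genes had an unadjusted p under 0.05 and none an adjusted one. With DESeq2, 0 members and 234 genes did, and none an adjusted one. limma without a trend in its prior variance, run as an alternative after seeing the data, gave 1 member, Acad9 (unadjusted p of 0.0402, beside 0.0557 for Hadh), and 427 genes. Leaving out 1 library at a time left 0 to 3 members under that limit: Acad9 passed it only without PBS 2, and Hadh only without PBS 1. Of the 36 members, 19 had a higher and 17 a lower mean under TSLP, and their median log2 fold change was 0.053, beside 0.012 over all genes tested. Each log2 fold change sets TSLP against PBS on the log2(normalized count + 1) scale, where the value of a gene with few reads depends on the added 1 and can come out smaller or, with a library at or near 0, larger than the ratio of the group means. For the other 34 tested members the unadjusted p by limma ran from 0.0533 to 0.924. In bulk RNA, fewer cells that express a gene and less RNA per cell cannot be told apart.

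The 95% interval of a member's log2 fold change, not adjusted for the number of genes, had a median half-width of 0.80, and that of all genes 0.82. Changes smaller than this were mostly not detectable with 2 libraries a group, even at an unadjusted p under 0.05. Larger changes are not excluded by the adjusted test. Acad9 and Hadh, at 0.86 and 1.08, had an adjusted p of 0.9999 by limma with Benjamini-Hochberg adjustment. In 26 of the 36 members (72.2%) the larger gap between libraries of the same group exceeded the difference between the group means, as it did in 83.3% of all genes. Groups did not overlap in 8 members with TSLP higher (22.2%, against 14.5% of all genes) and in 6 members with TSLP lower (16.7%, against 14.4%). The 8 were Acad9, Hadh, Acad11, Crat, Cpt1a, Ehhadh, Etfdh and Acsl4, and the 6 were Eci2, Acad10, Etfb, Cpt2, Acadvl and Acsl1. All reads of the 39 members together came to 1585 and 1386 cpm under PBS and 1475 and 1520 cpm under TSLP, so the PBS libraries bracketed the TSLP libraries.

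**Figure D1:**
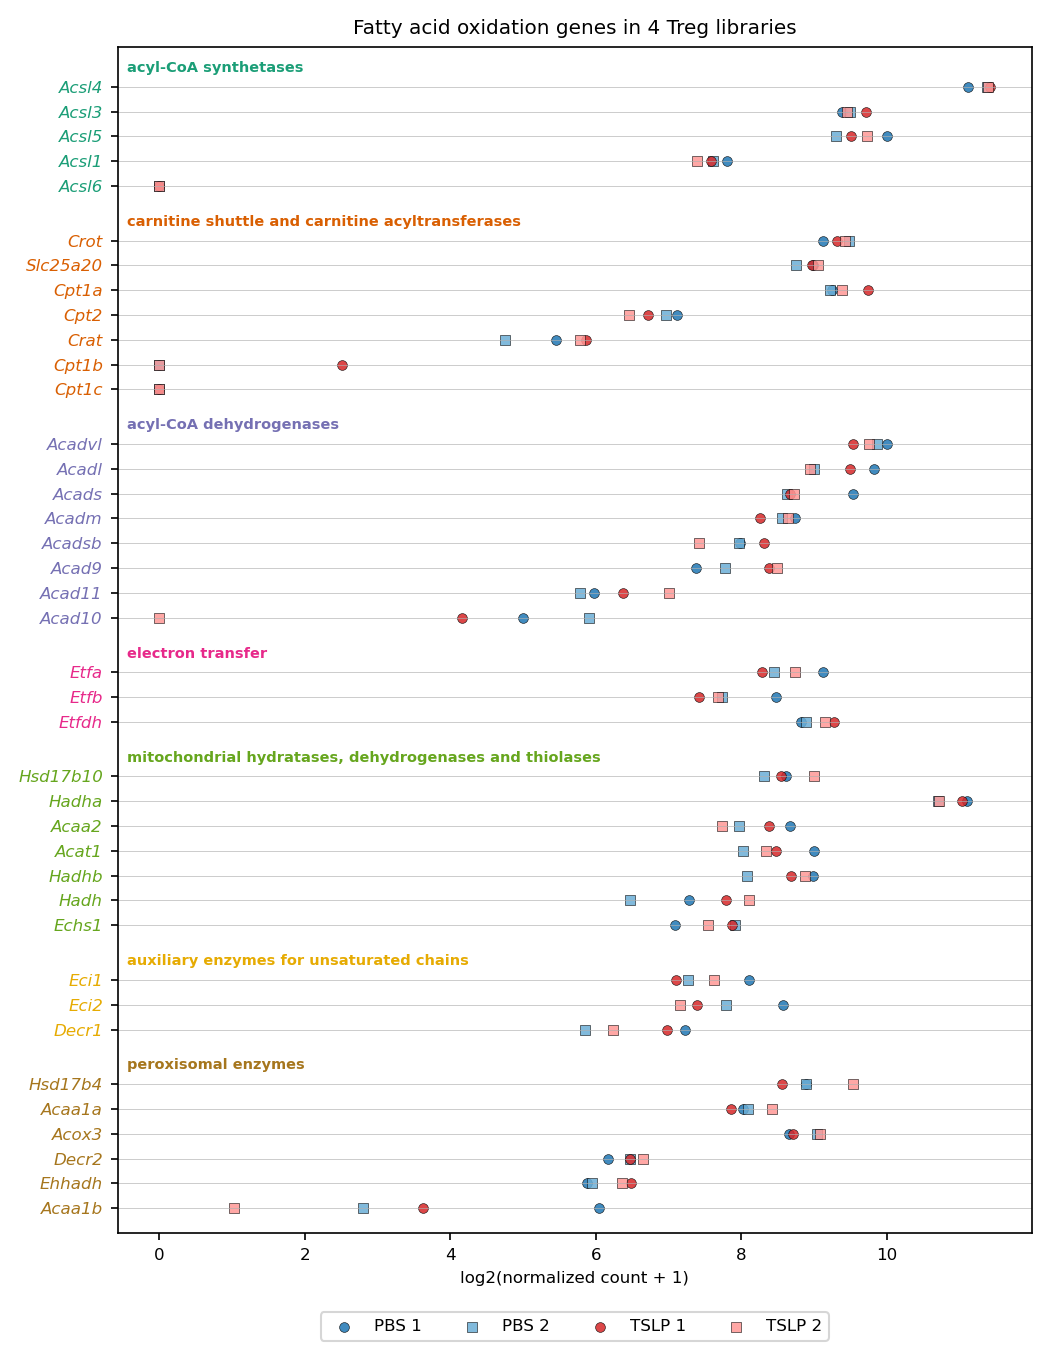
The normalized count of each of the 39 members in the 4 libraries, as log2(normalized count + 1), grouped by role and ordered within a role by reads per kilobase of exon. Acsl6 and Cpt1c lie at 0 in all libraries, Acad10 at 0 in TSLP 2, and for most members the points of the 2 groups interleave.

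**Figure D2:**
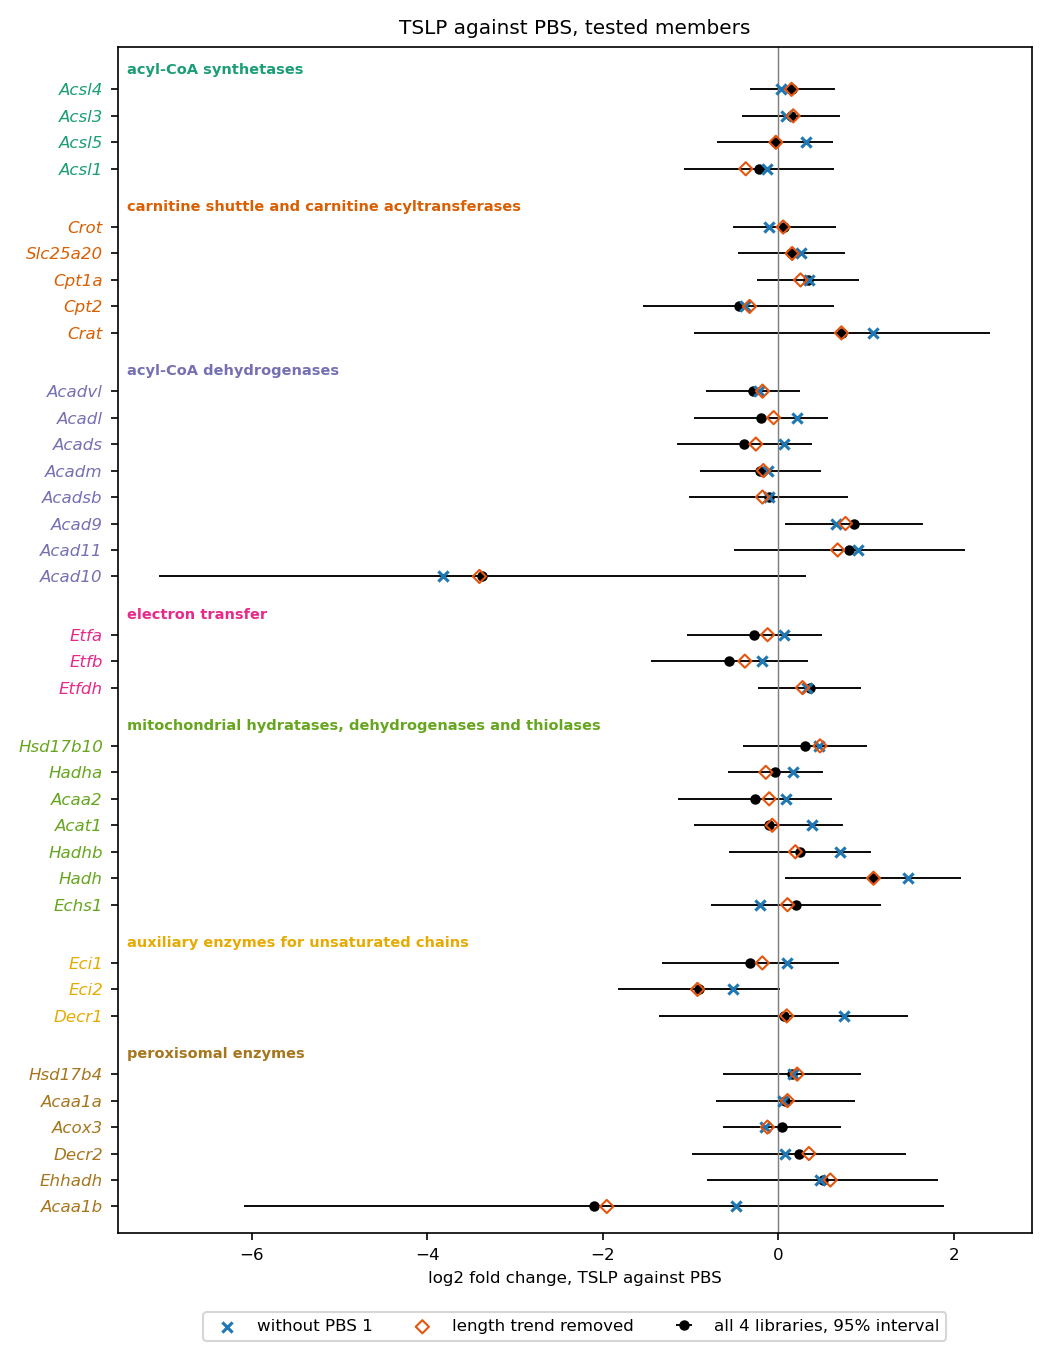
The log2 fold change of the 36 tested members, TSLP against PBS, with its 95% interval by limma from 2 libraries a group, and the same value without PBS 1 (crosses) or after removal of the trend over exon length (diamonds). The intervals of Acad9 and Hadh alone lie clear of 0, with no adjustment for the number of genes.

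Acyl-CoA synthetases activate long-chain fatty acids and were led by Acsl4, which prefers polyunsaturated chains such as arachidonate. Acsl4 (chrX:142317993-142390535, mm10) had 2287 and 2654 reads under PBS and 2916 and 2563 under TSLP. On the scale of normalized counts PBS 1 was the lowest library and the groups did not overlap, at 2436 ± 310 (SD, n = 2) for PBS and 2713 ± 48.5 (SD, n = 2) for TSLP. The log2 fold change was 0.16 (SE 0.22), and it was 0.031 without PBS 1. Per length, Acsl4 had the highest level of the 39 members, with a mean of 43.8 cpm per kilobase of exon, and it made up 51.6% to 61.1% of the summed level per length of the 5 Acsl genes in every library.

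Acsl3, which supports lipid droplet growth, had 689, 720, 891 and 671 reads in PBS 1, PBS 2, TSLP 1 and TSLP 2. Acsl5, found on mitochondria and the endoplasmic reticulum, had 1058, 628, 769 and 807 reads. The groups overlapped in both genes, with log2 fold changes of 0.15 (SE 0.25) for Acsl3 and -0.038 (SE 0.29) for Acsl5. PBS 1 held the highest Acsl5 value, and without it the log2 fold change of Acsl5 was 0.31, against -0.39 without PBS 2. Acsl1, the main isoform of fat and liver, had 229, 195, 203 and 159 reads, with TSLP lower by normalized count and a log2 fold change of -0.22 (SE 0.38). Its share of the family level per length was 1.87% to 2.66%. Acsl6, a brain isoform, had no reads in any library, which allows up to 3 reads or 0.292 cpm in the shallowest library (counting error only).

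The carnitine shuttle rested on Cpt1a, the liver-type carnitine palmitoyltransferase and the step that malonyl-CoA inhibits. Cpt1a (chr19:3322334-3385733, mm10) had 625 and 593 reads under PBS and 909 and 641 under TSLP. By normalized count the TSLP values were the higher ones without overlap, at 763 ± 132 against 600 ± 8.82 (SD, n = 2 each), but TSLP 1 stood farther from TSLP 2 than TSLP 2 stood from either PBS library. The log2 fold change was 0.34 (SE 0.26), with values of 0.16 without TSLP 1 and 0.51 without TSLP 2. Of the other Cpt1 isoforms, the muscle form Cpt1b had 5 reads in TSLP 1 and none in the other libraries, and 81.4% of its exon length is shared with another gene model on the same strand. The brain form Cpt1c had no reads. Cpt1a accounted for 98.8% to 100% of the family level per length.

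Cpt2, the inner-membrane partner that regenerates acyl-CoA, had 142, 124, 111 and 83 reads in PBS 1, PBS 2, TSLP 1 and TSLP 2. The TSLP values were the lower ones without overlap, at 95.7 ± 12.6 against 131 ± 9.60 normalized counts (SD, n = 2 each), with a log2 fold change of -0.45 (SE 0.48). The ratio of Cpt1a to Cpt2 per length was 1.38 in PBS 1 and 1.496 in PBS 2, and 2.56 in TSLP 1 and 2.42 in TSLP 2. This ratio was picked with the values of both genes in view, and no test was made of it.

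Slc25a20, the carnitine-acylcarnitine carrier, had 521, 432, 533 and 510 reads, and PBS 1 lay between the TSLP values (log2 fold change of 0.15, SE 0.27). Crot, the peroxisomal carnitine octanoyltransferase, had the highest level per length of the shuttle group, with 575, 712, 677 and 654 reads and PBS 2 as the highest library. Its log2 fold change of 0.067 (SE 0.26) became -0.11 without PBS 1. Crat, which moves acetyl and short acyl groups, had 44, 26, 61 and 52 reads and a log2 fold change of 0.73 (SE 0.75). In the group as a whole 4 of the 5 genes tested had a higher and 1 a lower mean under TSLP, none with an unadjusted p under 0.05.

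Among the acyl-CoA dehydrogenases, which take the opening step of each cycle, Acad9 had the smallest p of all members. Acad9 is also an assembly factor of respiratory complex I. Acad9 (chr3:36065979-36092853, mm10, plus strand) had 170 and 219 reads under PBS and 354 and 344 under TSLP. Both TSLP libraries lay well above both PBS libraries, with means of 346 ± 18.4 and 192 ± 38.4 normalized counts (SD, n = 2 each). The log2 fold change was 0.86 (SE 0.35), with an unadjusted p of 0.0344 and an adjusted p of 0.9999 by limma with Benjamini-Hochberg adjustment. It stayed positive in all 17 alternative settings, at 0.66 without PBS 1 and 0.77 with the length trend removed, with unadjusted p-values from 0.0253 to 0.164 and 12 of them under 0.05. Of the 50-base windows of its exons, 8.91% also occur in other genes.

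Acad10, an enzyme of uncertain substrate, had the lowest fold change of the list. Acad10 was read 32 times in PBS 1, 59 times in PBS 2, 18 times in TSLP 1 and not at all in TSLP 2. TSLP was lower without overlap (log2 fold change of -3.37, SE 1.63, unadjusted p of 0.0684 by limma), but the value rested on the empty library. It was -2.38 by edgeR and -2.40 by DESeq2 on the recovered reads, and -1.29 by limma without TSLP 2. Of its windows, 16.8% also occur in the neighbouring Acad12. Acad11, which acts on very long chains, had 64, 54, 87 and 122 reads, with TSLP higher without overlap and a log2 fold change of 0.81 (SE 0.58).

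Acadvl, the very long-chain enzyme of the inner membrane, had the highest level per length of the dehydrogenases, 30.5 cpm per kilobase, closely followed by Acadl. Acadvl had 1054, 934, 790 and 823 reads, and TSLP was lower without overlap, with a log2 fold change of -0.29 (SE 0.24). Since 42.9% of its exon length overlaps Dvl2 on the opposite strand and the strand setting of the counting was not given in the sources used here, reads of these genes may be uncertain. The remaining dehydrogenases, Acadm (medium chains), Acads (short chains), Acadl (long chains) and Acadsb (short branched chains), had log2 fold changes from -0.39 to -0.11, and their groups overlapped. The fold change of Acadsb was 0.34 without TSLP 2. PBS 1 was the highest library for Acads (763 reads, against 396, 430 and 405) and for Acadl (932 reads, against 512, 762 and 470). Without PBS 1 their log2 fold changes were 0.063 and 0.21, and without PBS 2 they were -0.84 and -0.60. In all, 2 of the 8 dehydrogenases had a higher and 6 a lower mean under TSLP.

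Electron transfer from the dehydrogenases runs through the Etfa-Etfb dimer and then Etfdh. Etfa had 576 and 348 reads under PBS and 331 and 409 under TSLP, and Etfb had 368, 212, 180 and 196 in the same order. PBS 1 was the highest library in both genes. The log2 fold changes, -0.27 (SE 0.34) for Etfa and -0.56 (SE 0.40) for Etfb, were 0.068 and -0.19 without PBS 1. Without PBS 2 they were -0.61 and -0.93. Of the exon length of Etfb, 53.0% is shared with another gene model on the same strand. Etfdh, read 467, 472, 656 and 543 times, was higher under TSLP without overlap, with a log2 fold change of 0.36 (SE 0.26).

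The later mitochondrial steps held the other member with an unadjusted p under 0.05. Hadh, the 3-hydroxyacyl-CoA dehydrogenase of medium and short chains, lies at chr3:131233419-131272101 (mm10, minus strand). Hadh had 159 and 88 reads under PBS and 235 and 264 under TSLP. Every TSLP value lay above every PBS value, with means of 249 ± 38.5 and 121 ± 46.7 normalized counts (SD, n = 2 each). The log2 fold change was 1.08 (SE 0.44), with an unadjusted p of 0.0376 and an adjusted p of 0.9999 by limma with Benjamini-Hochberg adjustment. It was 1.48 without PBS 1, which was the higher PBS library, 0.68 without PBS 2 and 1.09 with the length trend removed. Over the 17 alternative settings its unadjusted p ranged from 0.0220 to 0.214, and 12 were under 0.05. Of its exon windows, 0.503% occur in other genes.

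Hadha and Hadhb, the subunits of the trifunctional protein that runs the last 3 steps for long chains, had groups that overlapped. Hadha had 2276, 1668, 2218 and 1610 reads and a log2 fold change of -0.033 (SE 0.24). That value was 0.17 without PBS 1 and -0.23 without PBS 2. Hadhb had 524, 268, 435 and 448 reads and a log2 fold change of 0.25 (SE 0.36), and 18.1% of its windows also occur in the processed pseudogene Gm13910. The Hadhb value was 0.71 without PBS 1 and -0.21 without PBS 2, so its direction rested on which PBS library was kept. Hsd17b10, an enzyme for branched chains that is also a subunit of mitochondrial RNase P, had the highest level per length of this group, 28.2 cpm per kilobase. It had 405, 317, 395 and 490 reads in PBS 1, PBS 2, TSLP 1 and TSLP 2, with overlapping groups and a log2 fold change of 0.31 (SE 0.31). Echs1 (enoyl-CoA hydratase), Acaa2 and Acat1 (thiolases) had log2 fold changes from -0.26 to 0.20 with overlapping groups. Without PBS 1 the value of Echs1 was -0.21, that of Acaa2 0.091 and that of Acat1 0.38, each of the opposite sign. Without PBS 2 the values were 0.62, -0.62 and -0.60 in the same order.

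Auxiliary enzymes reposition the double bonds of unsaturated chains so that the cycle can act on them. Eci2, an enoyl-CoA isomerase, had the smallest p of the members that were lower under TSLP. Eci2 (chr13:34977748-35027096, mm10) had 392 and 220 reads under PBS and 177 and 136 under TSLP. The groups did not overlap, at 154 ± 17.4 normalized counts for TSLP and 300.03 ± 113 for PBS (SD, n = 2 each), but the PBS libraries differed from each other by more normalized counts than the group means did. The log2 fold change of Eci2 was -0.91 (SE 0.41, unadjusted p of 0.0533 by limma and 0.0336 by edgeR). It was -0.51 without PBS 1 and -1.30 without PBS 2, and it was negative in all 17 alternative settings. Of its windows, 9.90% occur in other genes. Its mitochondrial relative Eci1 had 282, 153, 145 and 188 reads, again highest in PBS 1. The log2 fold change of Eci1, -0.32 (SE 0.45), was 0.10 without PBS 1 and -0.73 without PBS 2. Decr1, the mitochondrial dienoyl-CoA reductase, was read 57 to 154 times and had a log2 fold change of 0.062 (SE 0.63), with 0.75 without PBS 1 and -0.62 without PBS 2.

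In the peroxisomal group, Hsd17b4, the bifunctional enzyme of very long and branched chains, had the highest level per length. It had 490 and 471 reads under PBS and 401 and 706 under TSLP. The TSLP libraries were the lowest and the highest, and the log2 fold change was 0.16 (SE 0.35), and -0.32 without TSLP 2. Acox3, Decr2 and Ehhadh, which serve branched chains, unsaturated chains and dicarboxylic acids, had log2 fold changes of 0.045 (SE 0.30), 0.24 (SE 0.54) and 0.50 (SE 0.58), and Ehhadh alone of these did not overlap between groups, with 60, 61, 94 and 78 reads. The fold change of Acox3 was -0.15 without PBS 1.

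The peroxisomal thiolases Acaa1a and Acaa1b are near-identical genes on chromosome 9, and their reads can be split between them. Their coding sequences (GENCODE M21, mm10) agree in 1228 of 1272 bases (96.5%), with a longest identical run of 327 bases, and 30.5% of the 50-base windows of Acaa1b also occur in Acaa1a. A stretch of 60 bases (coding positions 259 to 318) is shown because it holds 11 of the differences by which a read can be assigned, marked in capitals.
Acaa1a: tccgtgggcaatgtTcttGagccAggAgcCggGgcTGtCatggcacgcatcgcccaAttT
Acaa1b: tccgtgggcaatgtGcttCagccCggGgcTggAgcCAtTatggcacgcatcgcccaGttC
Acaa1a had 268, 271, 245 and 327 reads in PBS 1, PBS 2, TSLP 1 and TSLP 2, and Acaa1b had 67, 6, 12 and 1. The groups overlapped for Acaa1a (log2 fold change of 0.081, SE 0.35, and -0.20 without TSLP 2), while Acaa1b was high in PBS 1 and low in the other 3 libraries. Acaa1b took 20% and 2.17% of the reads of the pair under PBS, and 4.67% and 0.305% under TSLP. Its log2 fold change of -2.10 (SE 1.76) was -0.48 without PBS 1 and -3.72 without PBS 2.

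**Figure D3:**
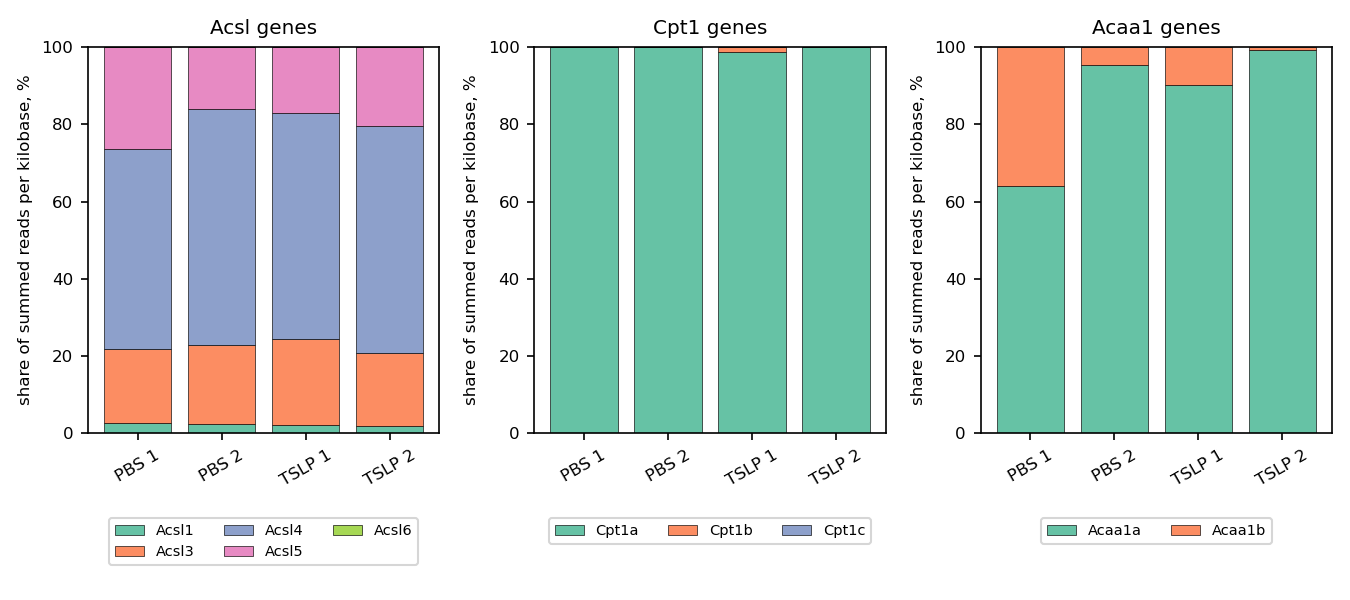
The share of each gene in the summed reads per kilobase of exon of the Acsl, Cpt1 and Acaa1 genes, in percent, in each of the 4 libraries. Acsl4 and Cpt1a lead their families in every library, and Acaa1b is large in PBS 1 alone (36%, against 0.683% to 9.93%).

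Exon length moved with the libraries. Over the 36 tested members, the log2 ratio of PBS 1 to the other 3 libraries had a Spearman rho of -0.48 with exon length, against 0.26 for PBS 2, 0.35 for TSLP 1 and 0.15 for TSLP 2, each set against the others. These are descriptions across genes, which share the same 4 libraries, and carry no test. The fold change of TSLP against PBS had a rho of 0.40 with exon length. The 18 members at or under the median exon length of 4629 bases, Etfb, Etfa, Acadl and Eci1 among them, had a median log2 fold change of -0.20, and 11 of them were lower under TSLP. The 18 longer members, Acad9 and Hadh among them, had a median of 0.15, and 12 were higher. Without PBS 1 the medians were 0.086 and 0.21. PBS 1 was the highest library in 17 of the 36 members (47.2%), compared with 32.4% of all genes. PBS 2 also departed from the share over all genes. It was the lowest library in 12 members (33.3%, against 21.8% of all genes) and the highest in 3 (8.33%, against 23.3%).

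**Figure D4:**
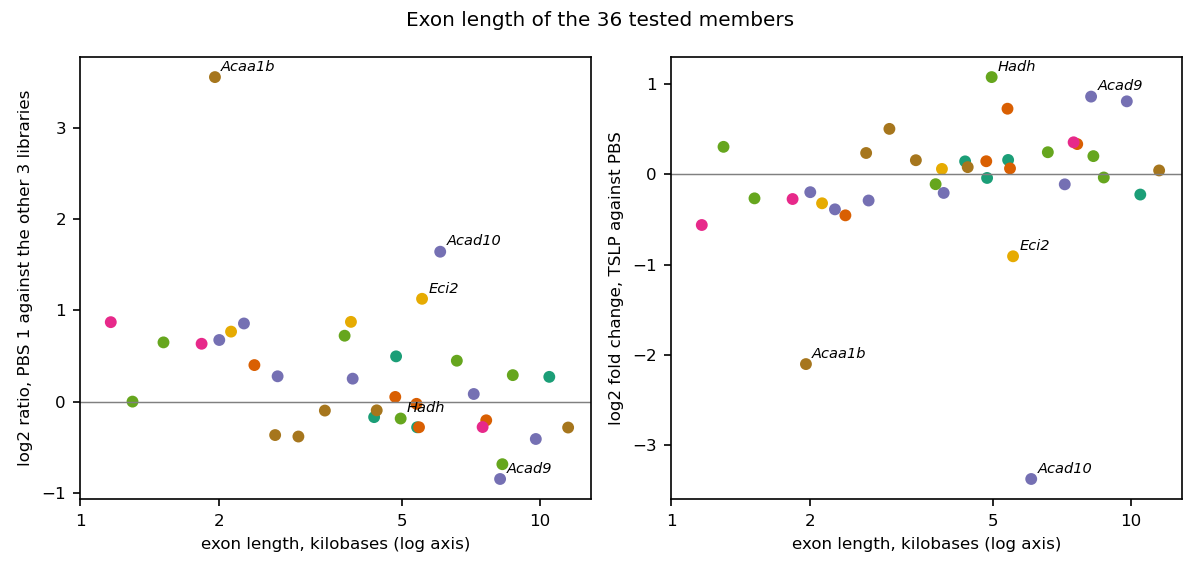
On the left, PBS 1 against the other 3 libraries on average, as a log2 ratio, and the log2 fold change of TSLP against PBS on the right, for the 36 tested members, against exon length on a log axis, coloured by role. Short members lie mostly above 0 on the left and below 0 on the right, and Acaa1b and Acad10 are the lowest points on the right.

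Promoter sequences (RefSeq, GRCm38.p6, from 250 bases before to 50 after a start site) were found for 32 members, 35 promoters in all. The palindrome TTCNNNGAA bound by STAT factors, which reads the same on both strands, was present in 3 of the 35 (8.57%), close to its share of 8.30% among all 32851 promoters. The matches lay before Cpt2, starting at position -200 from the start site, and upstream of the RefSeq starts of Hadha and Hadhb, which are transcribed in opposite directions and share a single match. By GENCODE M21, in which Hadha spans chr5:30118304-30155162, the shared site lies within Hadha. These sites are shown, with the motif in capitals, because they are the matches of the STAT motif in the list.
Cpt2: ttctatccagTTCTGTGAAaggaaaagag
Hadhb: aaaggatgatTTCTCTGAAggtgagacta
The Cpt2 site lies at chr4:107923771-107923799 on the minus strand and the Hadhb site at chr5:30155118-30155146 on the plus strand. The estrogen-related receptor element TCAAGGTCA, searched on both strands, was in 1 promoter, that of Acsl6 (2.86%, against 0.423% of all), and the direct repeat bound by PPAR and RXR in none, against 0.0396% of all. A match is a description of letters and not of binding, and none of the genes with a STAT match had an unadjusted p under 0.05.

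A second list held 63 other genes of the pathway, of which 54 could be tested. Of these, 22 had a higher and 32 a lower mean under TSLP, their median log2 fold change was -0.043, none had an adjusted p under 0.05, and 1 of the 54, Bdh1, had an unadjusted p under 0.05, a share close to the 1.69% of all genes. Bdh1, the mitochondrial 3-hydroxybutyrate dehydrogenase of ketone body use, had 494 and 418 reads under PBS and 290 and 258 under TSLP. Both TSLP libraries were lower, at 271 ± 2.53 against 449 ± 42.8 normalized counts (SD, n = 2 each). The log2 fold change was -0.72 (SE 0.30, unadjusted p of 0.0395 by limma) and -0.62 without PBS 1. The unadjusted p of Bdh1 was above 0.05 by limma with a replicate block (0.0540) and by DESeq2 (0.0650). Of the 9 genes not tested, 8 had no reads in any library, Acox2, Abcd2 and Bdh2 among them, and Eci3 had 8 reads in PBS 1 and none elsewhere. The next lowest p among lower genes was that of Hibch, a hydrolase of valine breakdown, with 165, 97, 38 and 60 reads and a log2 fold change of -1.38 (SE 0.61, unadjusted p of 0.0515 by limma).

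Among the higher genes, Mut, the methylmalonyl-CoA mutase that handles the propionyl units of odd chains, had 102, 72, 180 and 158 reads and a log2 fold change of 0.98 (SE 0.47, unadjusted p of 0.0682 by limma), and 1.205 without PBS 1. The groups did not overlap.

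Of 24 regulators, 20 were tested and none had an unadjusted p under 0.05. The receptor Ppara and its coactivator Ppargc1a, the usual activators of this programme in liver and muscle, had no reads in any library, nor had Hnf4a and the kinase subunit Prkaa2. Ppard, the PPAR family member with the most reads here, had 896, 811, 777 and 512 reads, and Pparg had 45, 28, 31 and 92. Prkaa1, the catalytic AMPK subunit that was present, had 769, 860, 791 and 831 reads and a log2 fold change of 0.0065. Other AMPK subunits differed from it. Prkag2 (581, 496, 392 and 310 reads) and Prkab1 were lower under TSLP without overlap. Their log2 fold changes were -0.61 (SE 0.28, unadjusted p of 0.0587 by limma) and -0.45 (SE 0.24). Prkab2 and Prkag1 had overlapping groups, at -0.27 (SE 0.32) and -0.012 (SE 0.24).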

How the data were processed

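Sorted Treg cells were compared in 2 PBS and 2 TSLP libraries. Per the labels and the study's methods, the authors mapped 50-base single-end reads of a strand-specific library to mm10 (HISAT2) and counted reads per gene (HTSeq). The strand setting and the annotation were not given in the sources used here. The deposited values are a signal: the authors' read counts divided by the size factor of each library (0.957 to 1.06). All values (100%) were whole multiples of 1 read within 0.01, so reads were recovered. The table held no other per-sample columns, and 27 gene names had turned into dates.

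limma 3.58.1 (R 4.3.3) was fitted to log2(normalized count + 1) over 11392 genes, with a trend of the prior variance over the mean level and Benjamini-Hochberg adjustment. The trend follows an earlier analysis of these data and was kept with the counts of both fits known; the fit without it, an alternative added after seeing the data, is given in the closing section. Alternatives were edgeR 4.0.16 and DESeq2 1.42.0 on the recovered reads, other scalings, filters and pseudocounts, a replicate block, removal of the trend over exon length, and leaving out each library. The fits were tested on simulated counts that had a common spread for all genes and no library set apart from the rest. That run cannot show how the fits behave on these libraries. Depth was 10271571 to 11761234 reads on genes; a count of 0 allows up to 3 reads (0.255 to 0.292 cpm), for counting error only, since PCR copies were counted. Positions and exon lengths came from GENCODE M21 and promoters from RefSeq (both GRCm38). The members and the lists were chosen with earlier results of these data known. Reads in every library are given for members with an unadjusted p under 0.05, the 3 with the smallest p in each direction, the highest per length of each role, the carnitine shuttle, the Acsl genes and the Acaa1 pair, and for pathway genes with an unadjusted p under 0.05 and the 2 with the smallest p in each direction. Other genes are given in part, chosen after their values were seen, and some genes of the pathway list are not reported here.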

Additional observations from a re-analysis of the deposited data

How the results depend on the processing

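No member and no gene had an adjusted p under 0.05 under any of the 17 alternative settings, and the smallest adjusted p was 0.0643, by limma without the variance trend. The number of members with an unadjusted p under 0.05 was 2, with 1 (Acad9) by limma without the variance trend, 0 by DESeq2, and 0 to 3 when each library was left out in turn. Leaving out a library leaves a lone sample, which is assumed to vary like the other group. The number of genes was 192, with 427 without the variance trend, 358 with no filter, and 79 (without TSLP 2) to 1858 (without PBS 2) with each library left out. The number of pathway genes was 1, with 6 without the variance trend, 2 by edgeR, 0 by DESeq2, 2 with a filter at 50, 2 with a pseudocount of 5, 4 with the length trend removed, and 0 (without PBS 1) to 5 (without PBS 2) with each library left out. The median log2 fold change of the members, 0.053, ranged from -0.17 (without PBS 2) to 0.091 (without PBS 1). The causes of these shifts were not tested.

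Same-numbered libraries were not treated as pairs in the main fit, since the labels do not say whether replicate numbers pair samples. The correlation of their deviations over genes was 0.00072. That value cannot show whether they shared mice or a culture. With a replicate block the members came to 2 by limma and 3 by edgeR, the genes to 258 and 215, and the pathway genes to 3 and 2; with the length trend also removed, they were 3, 388 and 6. Of the 36 members, 20 kept the sign of their fold change in every setting and 16 did not. Acad10, Acaa1b, Crat and Cpt1b rest on few reads.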

Other observations

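Other pathway genes, chosen after their values were seen, are given as values. Mcee, the methylmalonyl-CoA epimerase that acts just before Mut, had 9 and 15 reads under PBS and 39 and 53 under TSLP (log2 fold change of 1.89, unadjusted p of 0.0916 by limma). Mlycd, the decarboxylase that removes the Cpt1 inhibitor malonyl-CoA, had 143, 63, 40 and 30 reads in the same order, with PBS 1 the highest (log2 fold change of -1.42, SE 0.70, unadjusted p of 0.0724 by limma), and -0.86 without PBS 1. Nrip1, a corepressor of nuclear receptors, had 1108 reads in PBS 1 and 2610, 3237 and 2369 in the others. Pccb, a subunit of propionyl-CoA carboxylase, had 150 and 50 reads under PBS and 150 and 49 under TSLP. Sirt3, a mitochondrial deacetylase, had 95, 39 and 71 reads in PBS 1, PBS 2 and TSLP 1 and none in TSLP 2.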
